A study of Mus musculus with 4 samples.

Results

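The maxilla, the bone of the upper jaw, was compared with the mandible, the bone of the lower jaw, across all genes on the array. The comparison rests on 2 of the 4 arrays of the series, 1 for each jaw bone. Both bones came from male C57BL/6 mice aged 35 days with no treatment named in the labels, and the other 2 arrays held the ilium and the femur of such mice. The labels do not give the number of animals behind a bone, and with 1 array per bone there is no measure of the spread between animals, so no difference here has a test or a replicate check. A level is a gene's log2 signal less the 75th percentile of its array, a difference is the level in the maxilla minus that in the mandible, and a gene was counted when the brighter bone was well above background and at least 4-fold higher. Where the dimmer bone was not well above background its level is only a bound, and the fold is written as at least a value.

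The bones of both jaws come largely from cranial neural crest cells that settle in the first pharyngeal arch. Endothelin signalling through Dlx and Hand transcription factors gives the lower part of that arch its mandibular identity, and the upper part and the frontonasal region form the upper jaw. The maxilla encloses the floor and sides of the nasal cavity, which is lined by ciliated airway epithelium and by the olfactory and vomeronasal epithelia. The mandible carries the jaw-closing muscles. Both jaws of a mouse hold ever-growing incisors, in which enamel-forming ameloblasts and dentin-forming odontoblasts are renewed throughout life.

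Among genes with a symbol, those of the nasal lining and its glands made up the largest differences, all towards the maxilla. Fast muscle genes were higher in the mandible by smaller factors, as were many genes of tooth formation and jaw patterning. Other tooth and patterning genes ran towards the maxilla, among them Odam, Wdr72 and Meis2. Of 21082 genes well above background in at least 1 jaw bone, 1625 (7.71%) were at least 4-fold higher in the maxilla and 454 (2.15%) at least 4-fold higher in the mandible. Between the ilium and the femur the same rule counted 91 genes (0.436%) higher in the ilium and 17 (0.0814%) higher in the femur, out of 20892. The difference was at least 16-fold for 602 genes towards the maxilla and 5 towards the mandible, and at least 64-fold for 247 and 0. The mandible was not well above background for 570 of the 1625 genes, and the maxilla for 42 of the 454. The median difference of all genes was -0.05.

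**Figure D1:**
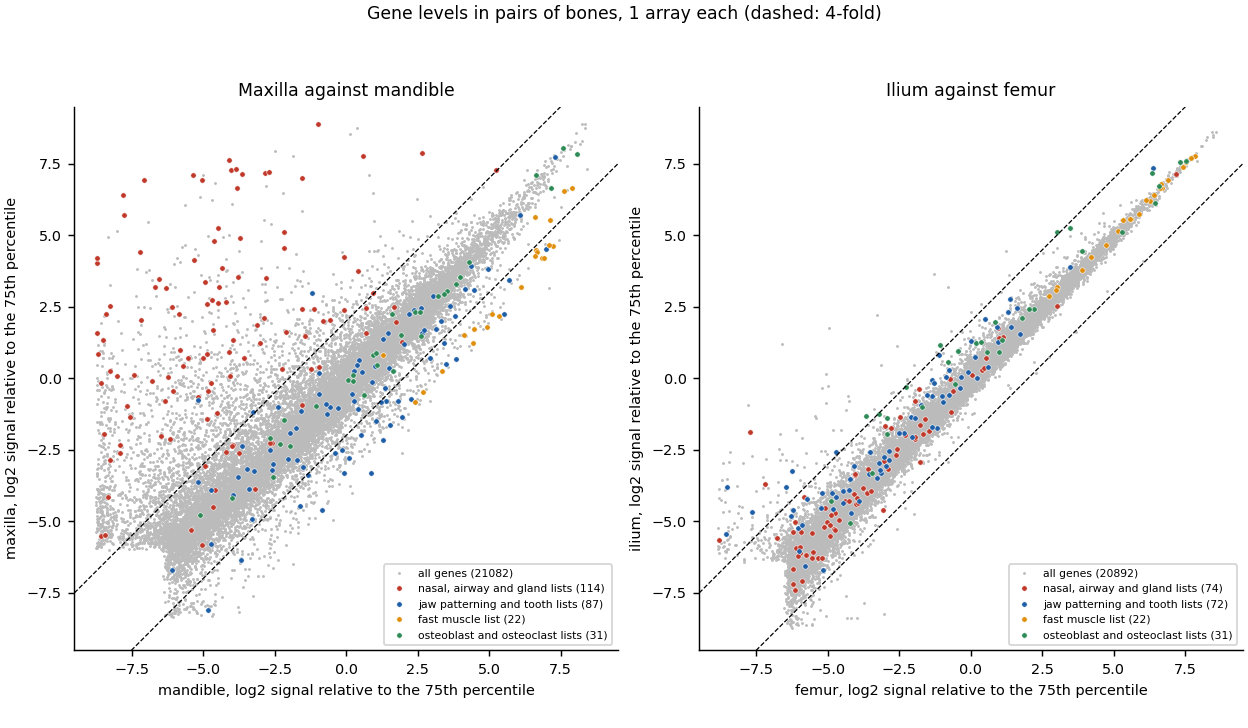
Level of each gene in the maxilla against the mandible (left) and in the ilium against the femur (right), on the log2 scale relative to each array's 75th percentile. Grey points are all genes well above background in at least 1 bone of the pair, coloured points are members of gene lists, and dashed lines mark 4-fold. The red points of the nasal, airway and gland lists lie far above the upper line in the jaw pair, while the fast muscle genes lie along or below the lower line. In the right panel nearly all list members lie between the lines.

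The error within an array was small beside these differences. Where a probe was printed more than once, the SD between its spots had a median of 0.0608 in the maxilla and 0.0572 in the mandible on the log2 scale. Of 529 further probes for 412 of the genes higher in the maxilla, 515 (97.4%) pointed the same way and 352 passed 4-fold, and of 191 further probes for 131 genes higher in the mandible, 168 (88.0%) pointed the same way and 95 passed 4-fold. All 4 arrays lay on 1 slide, where the position and the bone cannot be told apart. In whole bones, fewer cells of a type and less RNA per cell cannot be told apart either.

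Both arrays carried the RNA of bone, and the genes of bone cells differed little between them. Of 17 osteoblast and osteocyte genes with a value, 0 passed 4-fold in either direction, with a median difference of -0.42. Bglap, which encodes osteocalcin, stood at 7.85 in the maxilla and 8.06 in the mandible, and at 7.55 and 7.30 in the ilium and femur. Col1a1, the main collagen gene of bone, stood at 7.10 and 6.63 in the jaw bones. Sp7, a transcription factor gene needed for osteoblast formation, was 1.48 in the maxilla and 2.62 in the mandible, the third largest difference of this list after those of the Wnt inhibitor genes Dkk1 and Sost. Of 14 osteoclast genes, again 0 passed 4-fold, with a median of -0.18. Ctsk, the gene of the matrix-degrading protease cathepsin K, was 4.08 and 4.30.

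Genes of olfactory neurons were well above background in the maxilla throughout the list, and most were at least 4-fold dimmer in the mandible. All 22 members with a value had the higher level in the maxilla, 12 of them by at least 4-fold, with a median difference of 3.22. Gng13, a G protein subunit gene of chemosensory cells, stood at 3.36 in the maxilla against -4.95 in the mandible (ilium -6.09, femur -5.97), 318-fold higher than in the mandible. Omp, which encodes the olfactory marker protein of mature olfactory neurons, was -0.45 in the maxilla and not well above background in the mandible, at least 48.4-fold higher. The maxilla thus stood apart from the other 3 bones for both genes. Cnga2, the gene of the odour-gated cation channel, was 0.84 in the maxilla and between -4.88 and -4.72 in the other bones, 52.7-fold above the mandible. Stoml3 and the receptor chaperone genes Rtp1 and Rtp2 exceeded their mandible bounds by at least 91.7-, 79.5- and 89.6-fold. Gnal, the olfactory G protein gene, differed by only 1.63 and Adcy3, the adenylyl cyclase gene that it acts on, by 0.61, while 3 further Gnal probes gave 2.60 to 3.56.

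Receptor genes of the vomeronasal organ, which detects pheromones, were above background most often in the maxilla. Odorant receptor genes past 4-fold between the jaws were all higher there too. Of 109 Vmn1r genes, 73 were well above background in the maxilla, against 18 for the mandible, 19 for the ilium and 29 for the femur, and 44 were at least 4-fold higher in the maxilla. Of 25 Vmn2r genes the maxilla had 20, the mandible 8, the ilium 11 and the femur 13, with 15 at least 4-fold higher in the maxilla. Among the 15 was the pseudogene Vmn2r-ps11. Of 911 odorant receptor genes (Olfr), 298 were well above background in the maxilla, against 232 for the mandible, 261 for the ilium and 383 for the femur, so the number above background was highest in the femur. At least 4-fold, 36 of the 320 Olfr genes well above background in a jaw bone were higher in the maxilla and 0 in the mandible. The same rule counted 7.71% of all genes towards the maxilla and 2.15% towards the mandible. Olfr727 stood at 0.71 in the maxilla and was not well above background in any other bone, at least 138-fold above the mandible. Vmn1r89 was 0.52 in the maxilla and at least 121-fold higher than in the mandible, and Vmn2r89 was 0.80 against -5.87, with -5.69 in the ilium and -5.36 in the femur. Receptor genes of a family are alike in sequence, so signal can be shared between copies and the value of a single receptor is uncertain.

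**Figure D2:**
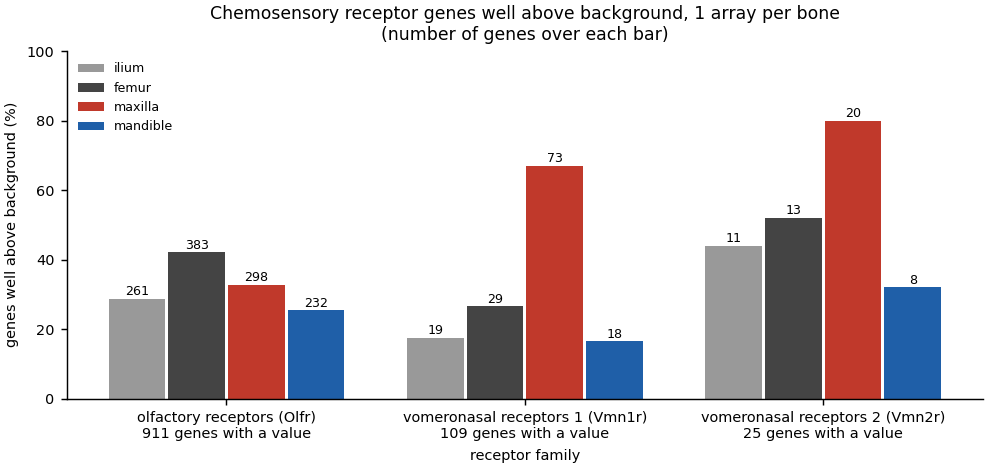
Share of the genes of each chemosensory receptor family that were well above background in each bone, in percent of genes with a value, 1 array per bone, with the number of genes over each bar. The maxilla has 73 of 109 Vmn1r and 20 of 25 Vmn2r genes, more than any other bone, whereas for the 911 Olfr genes the femur has the most with 383.

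Among other genes of vomeronasal neurons, 3 of 7 were at least 4-fold higher in the maxilla and 0 in the mandible. The 3 were Calr4, Gnao1 and Meis2, the last of which is also counted in the upper jaw list below. Calr4, a calreticulin gene expressed in the vomeronasal organ, was 0.79 in the maxilla and -5.45 in the mandible, 76.0-fold apart. Gnao1, the G protein gene of the Vmn2r pathway, differed by 2.29 (1.89 with normexp). Trpc2, the gene of the vomeronasal transduction channel, gave opposite signs by probe. Its brightest probe differed by -0.93 and the others by -0.75 to 4.55, so no direction can be given.

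The supporting cells and glands of the olfactory lining gave the largest differences among genes with a symbol. Of 18 such genes, 16 were at least 4-fold higher in the maxilla and all 18 had the higher level there, with a median of 7.72. Lcn4, a lipocalin gene of nasal glands (mm8, chromosome 2, 26491379 to 26491438), stood at 6.93 in the maxilla and was not well above background in the mandible, ilium or femur. It was at least 10310-fold above the mandible, the highest bound of any gene with a symbol. Lcn3, its neighbour in sequence, was 6.41 in the maxilla, again not well above background elsewhere, and at least 7187-fold higher, so the order of these 2 genes is not known. The odorant-binding protein genes followed, Obp2a with 7.63 against -4.09 (3359-fold) and Obp1b with 7.29 against -4.02 (2545-fold). Cyp2g1, which encodes an olfactory cytochrome P450, was at least 946-fold higher by its brighter probe. A further probe gave a log2 difference or bound of only 5.26. Of 39 genes of the Cyp2 family, which metabolises odorants and foreign compounds, 15 were higher in the maxilla and 0 in the mandible, led by Cyp2a4 (2697-fold). Lcn3 and Lcn4, the Obp1 genes and Cyp2a4 and Cyp2a5 are close copies, so their signals may be shared.

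Secretory genes of the airway lining showed the same direction in every member measured. Of 24 genes well above background in a jaw bone, 23 were at least 4-fold higher in the maxilla, with a median of 7.24. Dmbt1, a mucosal defence gene, stood at 6.92 in the maxilla and -5.04 in the mandible (ilium -6.21, femur -6.04), 4006-fold apart. Bpifa1, which encodes a secreted protein of the upper airway, was 7.33 against -3.86 (2344-fold), and its family had 8 of 12 genes higher in the maxilla and 0 in the mandible. For these genes the maxilla was the high bone and the other 3 were all low. Mucin genes were higher in 9 of 11 cases, among them the gel-forming Muc5ac (3.19 against -4.44, 199-fold, with a further probe at 2.70) and Muc5b (2.67 against -4.20, 117-fold). Pigr, whose product carries antibodies across epithelia, was at least 489-fold higher. Scgb1a1, the club cell gene of the lower airway, was the exception, with -4.49 in the maxilla and -4.66 in the mandible.

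Genes of motile cilia, the beating hairs that move mucus over the airway lining, were higher in the maxilla as a group. Of 26 well above background in a jaw bone, 22 were at least 4-fold higher in the maxilla, 0 in the mandible, and the median was 4.76. Foxj1, the transcription factor gene that switches on the ciliary programme, stood at 2.65 in the maxilla and -4.48 in the mandible, with ilium and femur not well above background, 140-fold apart. The dynein arm gene Dnah5 was 2.25 in the maxilla and not well above background in any other bone, at least 401-fold higher, and its further probes differed by 3.45 to 3.71. Dynlrb2, a dynein light chain gene, was 394-fold higher and Tekt1, a tektin gene of the ciliary shaft, 79.7-fold. The 4 genes under 4-fold were Rfx2, Rfx3, Tekt2 and Spag6, each with a positive difference, and Rfx2 and Rfx3, which encode X-box binding factors, differed by 1.13 and 1.63.

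X-box factors bind a split palindrome near the start of ciliary genes, so the promoters of the list were read in RefSeq (assembly GRCm38.p6, from 250 bases before to 50 after each start) for GTNNCC and GGNAAC with 2 bases between them, on both strands, N being any base. It was present for 3 of the 22 members with a promoter (13.6%) and for 1.49% of all 27025 genes. The shorter string GTTGCC, which can lie within the longer one, was present for 13 of the 22 (59.1%) and for 14.1% of all genes, and for 8 of the 17 with a promoter that were at least 4-fold higher in the maxilla. For olfactory neuron genes the palindrome of Ebf factors, TCCC and GGGA with 2 bases between, was present for 0 of 15 and 1.06% of all genes. These matches describe the letters only. The stretches before the start sites of Tekt4 and Pifo are shown because they are among the 3 that hold the full string, in capitals, and were chosen after the promoters were read. The levels of Tekt4 were 1.88 in the maxilla and -3.11 in the mandible (31.6-fold), and those of Pifo were 1.36 and not well above background (at least 216-fold). The Tekt4 stretch is chr17:25471397-25471476 on the plus strand, with the string 146 bases before the start, and the Pifo stretch is chr3:106001498-106001550 on the minus strand, 6 bases before it.
Tekt4: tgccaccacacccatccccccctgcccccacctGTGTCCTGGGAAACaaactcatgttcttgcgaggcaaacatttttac
Pifo: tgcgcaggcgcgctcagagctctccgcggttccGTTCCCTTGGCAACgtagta

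Gland genes known from salivary and lacrimal tissue were also higher in the maxilla. Of 19 well above background in a jaw bone, 15 were at least 4-fold higher in the maxilla and 0 in the mandible, with a median of 4.00. Pip, the gene of prolactin-inducible protein, stood at 6.66 in the maxilla and -3.81 in the mandible (1418-fold, 2.75 by a further probe). Elf5, a transcription factor gene of glandular epithelium, was 3.20 in the maxilla and at least 773-fold higher, and Bhlha15, a regulator of secretory cells, was 4.56 against -2.18 (106-fold, 1.90 by a further probe). Not every gland gene followed. Bpifa2, a parotid secretory protein gene, was -3.86 in the maxilla and -3.17 in the mandible, and Amy1, the salivary amylase gene, 1.27 and 1.94. Dcpp3 was at least 1801-fold higher in the maxilla and Klk1 688-fold, both from families of close copies. For Klk1 a further probe gave a log2 difference or bound of 6.58.

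Major urinary protein genes, which encode pheromone carriers made in liver and in glands of the nose, were at least 9.89 higher on the log2 scale in the maxilla in 4 of 5 members, 2 of them with only a bound in the mandible. Mup4 stood at 8.90 in the maxilla and was 951-fold above the mandible (ilium -0.77, femur -1.94). Mup1 was 7.10 against -5.35 (5602-fold). In the mandible Mup1 was also lower than in the ilium (-0.36) and femur (-1.80). Mup3 differed by 1.86. The genes are close copies, and their values are uncertain singly. Also among the 15 largest differences were A2ml1, a protease inhibitor gene of epithelium (7.10 against -4.99, 4368-fold), the secretoglobin gene Scgb1b27 (at least 3745-fold) and the pancreatic lipase-related gene Pnliprp1 (at least 3007-fold).

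Genes of simple epithelium ran towards the maxilla, and those of stratified epithelium ran in both directions. Of 18 genes of simple epithelium 13 were at least 4-fold higher in the maxilla, all 18 had a positive difference, and the median was 4.57. Krt19 was 3.78 in the maxilla and -4.16 in the mandible (246-fold), and the tight junction genes Cldn3 and Cldn7 were 173- and 166-fold higher. Of 26 genes of stratified epithelium 10 were higher in the maxilla, among them the mucosal keratin Krt76 (37.1-fold), Krt4 (at least 25.9-fold) and the wound-related Krt6a (17.4-fold). Basal layer genes were divided. Krt15 was 4.67 in the maxilla and 1.37 in the mandible (9.87-fold), whereas other basal genes lay the other way without reaching 4-fold. Krt5 stood at 4.22 in the maxilla and 5.31 in the mandible, Krt14 at 2.94 and 4.67, and Trp63, the regulator of basal cells, at 0.78 and 1.92 by its brightest probe (-2.13 and -1.08 apart by the others). Krt5, Krt14 and Trp63 were between -5.14 and -3.91 in the ilium and femur. Krt13 gave -0.56 by its brightest probe and 6.02 by another, so no direction is given.

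**Figure D3:**
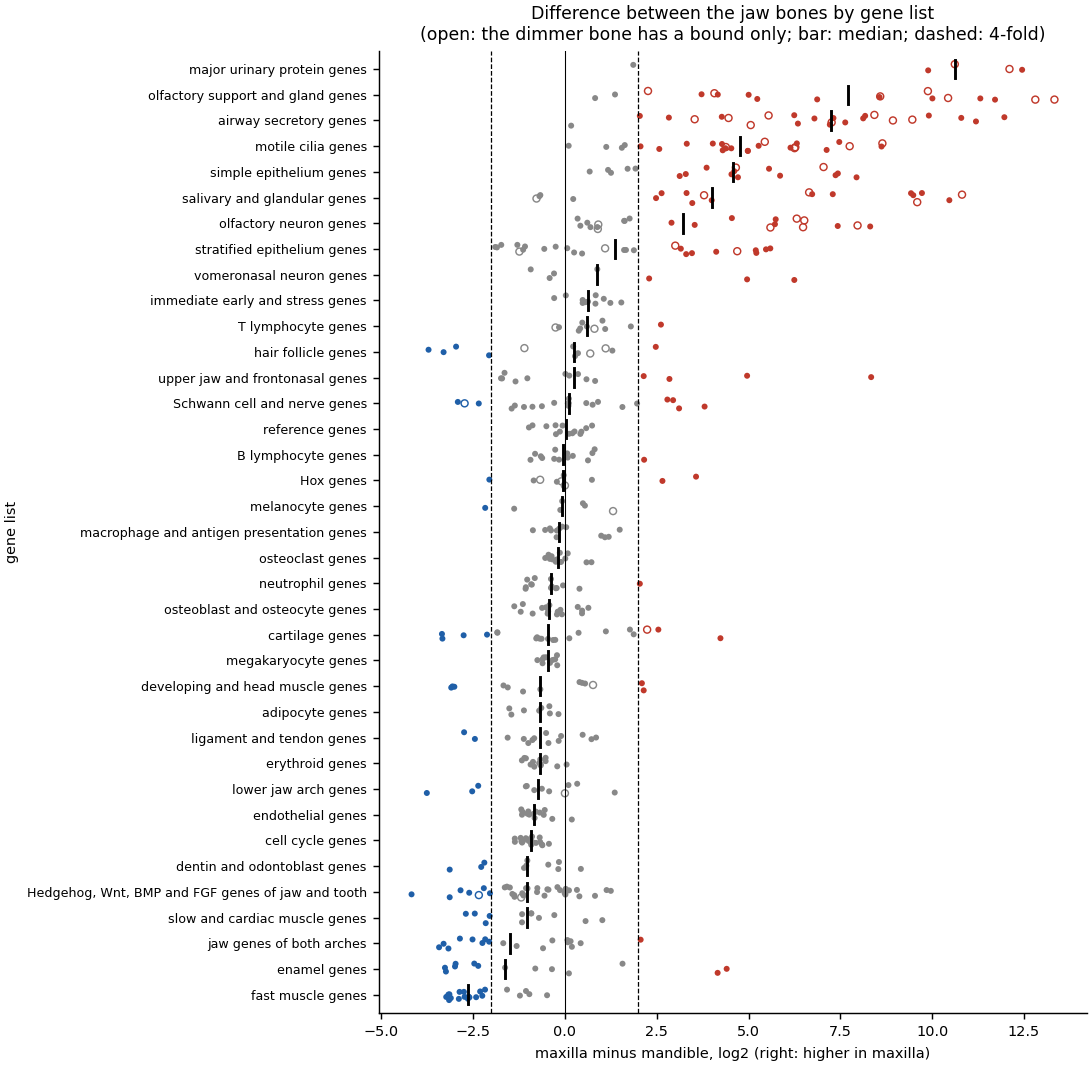
Difference between the jaw bones (maxilla minus mandible, log2) of each member of the gene lists that was well above background in at least 1 jaw bone. Red points are at least 4-fold higher in the maxilla, blue points at least 4-fold higher in the mandible, open points rest on a bound, bars are medians and dashed lines mark 4-fold. Lists of the nasal lining and glands sit at the top with medians up to 10.6 (bounds taken as values), and the fast muscle list at the bottom with a median of -2.63.

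Of the genes that pattern the lower jaw, those past 4-fold were all higher in the mandible. Hand2, the transcription factor gene that marks the lower part of the first arch, had the largest difference of the patterning genes towards the mandible (mm8, chromosome 8, 60214596 to 60215955). It stood at -0.84 in the mandible and -4.60 in the maxilla with the ilium and femur not well above background, 13.6-fold apart, and a further probe differed by -4.35. Dlx4 was 1.04 in the mandible and -1.48 in the maxilla (5.76-fold), and Dlx3 -0.16 and -2.52 (5.14-fold), with both lower again in the ilium and femur. Thus 3 of the 12 lower arch genes well above background passed 4-fold towards the mandible and 0 towards the maxilla. Dlx5 and Dlx6, which act above Hand2, differed by -1.04 and -0.63. Ednra, the endothelin receptor gene, differed by -0.83 and Gsc by -0.43. The ligand gene Edn1 differed by 0.33 and Cited1, a transcriptional coregulator gene, by 1.36 towards the maxilla.

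Genes active in both arches also ran towards the mandible. Of 18 such genes 8 were at least 4-fold higher in the mandible and 1 in the maxilla, with a median of -1.50. The 8 included Twist2, Msx1, Msx2, Dlx1, Dlx2, Lhx6 and Lhx8. Msx2, a homeobox gene of BMP-responsive mesenchyme and tooth buds, stood at 1.96 in the mandible and -1.34 in the maxilla (9.88-fold), and Dlx2, which is active in upper and lower arch alike, at 1.53 and -1.65 (9.01-fold). The ilium and femur were not well above background for either gene. Twist2 was 1.29 against -2.14 (10.8-fold). Lhx6 depended on the probe, -2.06 by the brighter one and 0.85 by the other. Among the 9 genes whose symbol begins with Dlx, 5 were at least 4-fold higher in the mandible and 0 in the maxilla, with a median of -2.35. The 9 include the opposite-strand transcripts Dlx4os, Dlx6os1 and Dlx6os2, and the 5 were Dlx1, Dlx2, Dlx3, Dlx4 and Dlx4os. Pitx1, a homeobox gene of the pituitary, hindlimb and lower jaw, was 1.39 in the maxilla and 1.29 in the mandible.

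The upper jaw list ran in both directions, with 4 of 14 genes at least 4-fold higher in the maxilla and 0 in the mandible. Meis2, a homeobox transcription factor gene that is also counted with the vomeronasal genes, was 3.02 against -1.94 (31.2-fold, 4.91 by a further probe). Pax3 was -1.18 against -4.02 (7.19-fold), and Pax7 was 4.43-fold higher. Genes of the Alx family, which shape the frontonasal skeleton, lay the other way without passing 4-fold. Alx1 was 0.30 in the maxilla and 1.65 in the mandible, and Alx4 was -0.32 and 0.71. Aldh1a3, which makes retinoic acid in the frontonasal region, was 0.75 and 2.46. The median of the list was 0.24 and lay between -0.26 and -0.02 when arrays were centred on the median, quantile normalized or taken from the series table.

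Most Hox genes, which are silent in the first arch, gave no comparison, since 14 of 24 were not well above background on either jaw array. Hoxc4 was -0.60 in the maxilla and between -4.17 and -4.11 in the other 3 bones (11.9-fold above the mandible). Hoxb6 was 6.30-fold higher in the maxilla by its brighter probe and lower, by -1.55, by the other. Hoxb3 was 4.16-fold higher in the mandible at low levels (-2.54 against -4.59), and -0.92 apart with normexp, another background correction.

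**Figure D4:**
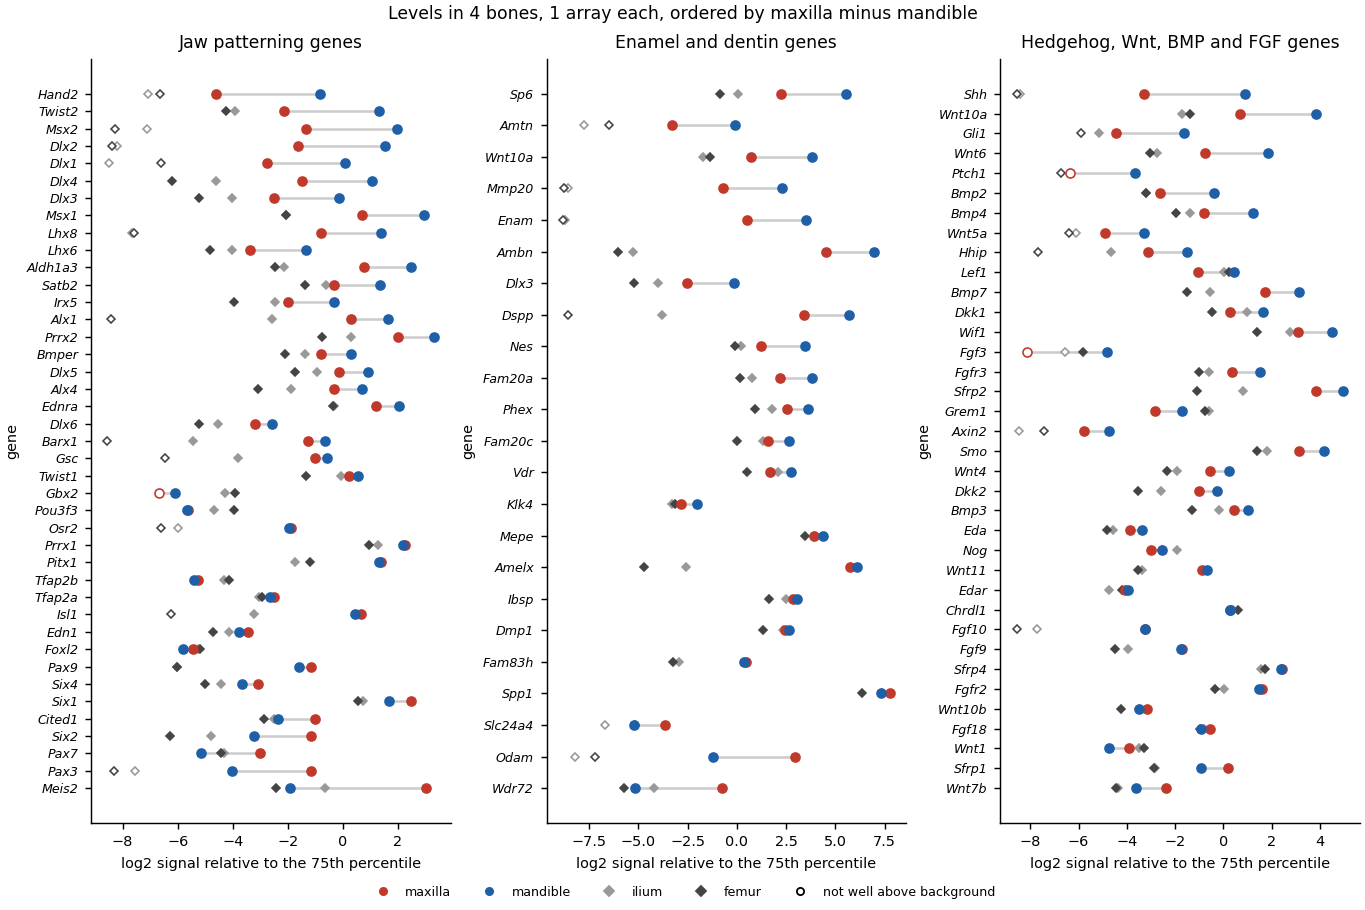
Levels of jaw patterning genes (left), enamel and dentin genes (centre) and signalling genes (right) in each bone, on the log2 scale relative to each array's 75th percentile, 1 array per bone, ordered by the difference between the jaw bones. Circles are jaw bones, diamonds are ilium and femur, and open symbols were not well above background. Mandible circles lie to the right of maxilla circles over most of each panel, and Meis2 at the bottom left reverses this with 3.02 against -1.94.

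Genes of enamel formation were higher in the mandible in their matrix-secreting part and mixed in the later part. Of 13 enamel genes well above background, 6 were at least 4-fold higher in the mandible and 2 in the maxilla, with a median of -1.63. The 6 include Dlx3, already counted with the lower arch genes. Enam, the enamelin gene, stood at 3.48 in the mandible and 0.51 in the maxilla (7.87-fold), and Mmp20, the protease of secretory-stage enamel, at 2.27 and -0.72 (7.96-fold). Both genes lacked a signal well above background in the other 2 bones. Ambn, the ameloblastin gene, was 6.98 and 4.51 (5.53-fold), and Sp6, a transcription factor gene of dental epithelium, 5.52 and 2.26 (9.62-fold). Amtn, a gene of the maturation stage, was -0.07 in the mandible and -3.31 in the maxilla (9.45-fold). Odam, expressed by maturation-stage ameloblasts and junctional epithelium, went the other way, 2.97 in the maxilla and -1.19 in the mandible (17.9-fold), and Wdr72 did so too (21.2-fold, though 1.24 by a further probe). Amelx, the amelogenin gene, was 5.72 and 6.07 by its brighter probe, with -2.21 by another. Klk4, the protease of maturing enamel, differed by -0.81.

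Odontoblast genes pointed to the mandible in 9 of 10 cases, and 3 passed 4-fold, with a median of -1.04. The direction alone was not particular to tooth genes. Differences were also negative for 20 of 20 cell cycle, 13 of 14 endothelial and 13 of 14 erythroid genes, of which 0 passed 4-fold. Of 11 T lymphocyte genes, 9 were positive. Dspp, which encodes the main non-collagen proteins of dentin, stood at 5.71 in the mandible and 3.43 in the maxilla (4.85-fold), and at -3.81 in the ilium with no signal well above background in the femur. Wnt10a, a Wnt ligand gene of odontoblasts and dental epithelium, was 3.83 against 0.70 (8.80-fold). Nes, which encodes the intermediate filament nestin of odontoblasts and nerve progenitors, was 3.44 against 1.24 (4.58-fold). The genes shared with bone differed less, as with Dmp1 (2.46 in the maxilla, 2.62 in the mandible) and Ibsp (2.87 and 3.05).

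Signalling genes of jaw and tooth followed the tooth genes. Of 36 Hedgehog, Wnt, BMP and FGF genes 7 were at least 4-fold higher in the mandible and 0 in the maxilla, with a median of -1.04. Shh, the Hedgehog ligand gene expressed at the growing end of the incisor (mm8, chromosome 5, 28788230 to 28788289), stood at 0.88 in the mandible and -3.30 in the maxilla, with ilium and femur not well above background, 18.1-fold apart. Its transcriptional targets ran the same way. Gli1 was -1.61 against -4.46 (7.17-fold), and Ptch1, the receptor gene, was -3.68 in the mandible and not well above background in the maxilla, at least 5.08-fold, although a further probe gave -0.62. Smo, the membrane transducer, differed by -1.02. The ligand genes Wnt6 (6.09-fold), Bmp2 (4.62-fold) and Bmp4 (4.12-fold) were higher in the mandible too. Ptch1, Gli1, Bmp2 and Dlx3 stayed under 4-fold with normexp, at -0.61, -1.65, -1.82 and -1.85, and Ptch1 also by the mean over probes, at -1.48. Scube1, a secreted modulator gene of Hedgehog and BMP signalling, was 1.94 against -1.70 (12.5-fold, -1.84 by its weakest probe), and Dlk1, a membrane inhibitor of Notch signalling, 2.15 against -1.79 (15.4-fold).

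The other genes among the 15 largest towards the mandible included Vwa2, an epithelial basement membrane gene (0.21 against -3.99, 18.5-fold), the glutamate receptor gene Grik1 (at least 18.1-fold, under 4-fold with normexp, at -1.99) and Adamts19, a metalloprotease gene (14.7-fold, -0.67 by its weakest probe). Grn and Dusp9 rested on 1 probe. Their other probes differed by -0.42 and -0.99, against -3.91 and -3.64 for the brighter ones. Ucp1, the uncoupling protein gene of brown fat, was -0.45 in the mandible and -4.96 in the maxilla (22.9-fold), higher still in the ilium (1.21) and not well above background in the femur. White and general fat genes differed less, with 0 of 8 adipocyte genes past 4-fold, although all 8 were lower in the maxilla (median -0.67). Fabp4 stood at 3.81 in the maxilla and 5.26 in the mandible and Adipoq at 0.69 and 0.87. Krt28, a keratin gene of the inner root sheath of hair, was 13.1-fold higher in the mandible (-1.75 with normexp). Krt27 was 7.80-fold higher there, and Krt75 was 5.56-fold higher in the maxilla. Hair follicle genes gave 4 towards the mandible and 1 towards the maxilla of 12. The 4 include Msx2, already counted with the genes of both arches, and Padi3, which was at -1.04 with normexp.

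Some markers of epithelium moved beside the tooth genes and others did not. The basal keratin genes Krt5 and Krt14 and Trp63, which dental epithelium shares with skin and oral lining, differed by -1.09, -1.73 and -1.14, less than Enam, Mmp20 or Shh. Krt15 (3.30), Epcam (3.29), Cdh1 (0.67) and Perp (0.25), further genes of epithelial cells, had positive differences. Krt17 (-1.90), Dsg1a (-1.85) and Pkp1 (-1.29) had negative ones. The stratified epithelium list held 17 positive and 9 negative differences (median 1.35), and all 18 of the simple epithelium list were positive (median 4.57). Genes of dividing cells ran towards the mandible, with all 20 cell cycle genes lower in the maxilla, a median of -0.92 and 0 past 4-fold. The part of either in the tooth and patterning differences was not tested.

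Genes of fast skeletal muscle had lower levels in the maxilla than in the mandible, ilium and femur. Of 22 genes 17 were at least 4-fold higher in the mandible and 0 in the maxilla, all 22 differences were negative, and the median was -2.63. For 16 of the 17 the ilium and femur were also at least 4-fold above the maxilla. Ckm, the muscle creatine kinase gene, stood at 2.19 in the maxilla, 5.35 in the mandible and 5.54 and 5.33 in the ilium and femur (8.90-fold between the jaws). Atp2a1, the calcium pump gene of fast fibres, was 1.79, 4.94, 5.57 and 5.57 in the same order (8.85-fold), and Acta1, skeletal actin, 4.63, 7.25, 7.56 and 7.53 (6.15-fold). The maxilla was thus the low bone of the 4. Ryr1, the calcium release channel gene, was 8.62-fold higher in the mandible by its brightest probe, with -3.17 and 0.56 by the others. Jsrp1, whose product sits at the junction between membrane and calcium store (mm8, chromosome 10, 80211924 to 80211983), had the largest difference of all genes towards the mandible, 1.96 against -2.61 (23.7-fold), with 1.82 in the ilium and 1.80 in the femur. The muscle genes Ucp3 (13.4-fold), Asb15 (12.2-fold, -1.40 by a further probe) and Lmod2 (11.4-fold, -1.80 with normexp) were also among the 15 largest.

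Slow muscle genes separated the jaw bones less, and most were lower in both than in the ilium and femur. Of 12 slow and cardiac genes 4 passed 4-fold towards the mandible (Csrp3, Myl3, Myoz2 and Casq2) and 0 towards the maxilla, and of these Myl3 was at -1.08 by the mean over probes and Myoz2 and Casq2 at -1.70 and -1.72 with normexp. Myh7, the slow myosin heavy chain gene, stood at -0.91 in the maxilla and 0.26 in the mandible, against 5.84 in the ilium and 5.69 in the femur. Tnni1, slow troponin I, was -5.13 and -4.22 against 1.26 and 1.21. The mandible was thus close to the ilium and femur for fast muscle genes and close to the maxilla for these slow ones. Myh2 and Myh4, the fast IIa and IIb heavy chains, were 6.24- and 4.52-fold higher in the mandible (Myh4 -1.29 by a further probe), while Myh1 differed by -1.58 and its other probes by -3.01 to 0.23. The myogenic factor genes Myog, Myf6 and Myod1 were 8.55-, 8.35- and 8.06-fold higher in the mandible, and Myog and Myod1 stayed under 4-fold with normexp (-1.88 and -1.59). Pax7, the satellite cell gene, ran the other way (4.43-fold higher in the maxilla), as did the embryonic heavy chain Myh3 (4.28-fold), both under 4-fold in other settings.

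**Figure D5:**
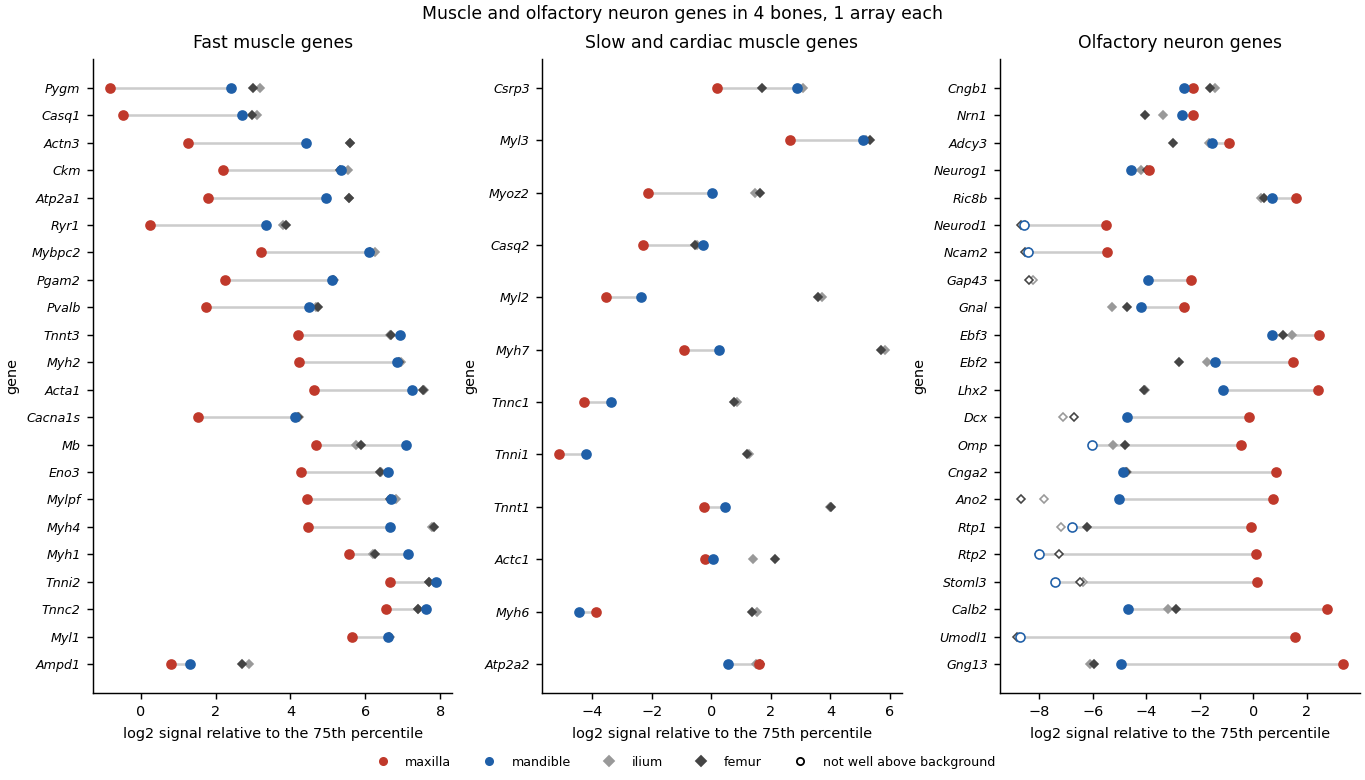
Levels of fast muscle (left), slow and cardiac muscle (centre) and olfactory neuron genes (right) in each bone, on the log2 scale relative to each array's 75th percentile, 1 array per bone, ordered by the difference between the jaw bones. In the left panel the mandible lies beside the ilium and femur for most genes and the maxilla to the left of them, in the centre both jaw bones lie left of the ilium and femur for genes such as Myh7, and on the right the maxilla alone is high for genes such as Gng13.

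Myogenic factors bind E-boxes, and the promoters of the fast muscle list were read for CAGCTG, a palindrome that reads alike on both strands. It was present for 12 of 18 members with a promoter in RefSeq (66.7%), 11 of them among the 15 at least 4-fold higher in the mandible, and for 18.3% of all 27025 genes. The MEF2-like string, CTA and TAG with 4 bases between, was present for 0 of 18 and for 4.23% of all genes. Again the counts describe letters in the window and not binding. The stretches of 4 genes are shown for the E-box in capitals, chosen after the promoters were read, among them Myh4 (6.65 in the mandible, 4.47 in the maxilla) and Pygm, muscle glycogen phosphorylase (2.40 and -0.83, 9.40-fold). Casq1, the calcium store gene of fast fibres, was 2.70 in the mandible and -0.48 in the maxilla (9.04-fold). They are chr11:67237708-67237787 (plus strand, Myh4), chr8:123894954-123895025 (minus strand, Acta1), chr19:6384363-6384407 (plus strand, Pygm) and chr1:172220048-172220127 (minus strand, Casq1), with the E-box 61, 215, 2 and 189 bases before the start.
Myh4: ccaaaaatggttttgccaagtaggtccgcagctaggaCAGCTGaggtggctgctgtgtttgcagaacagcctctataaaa
Acta1: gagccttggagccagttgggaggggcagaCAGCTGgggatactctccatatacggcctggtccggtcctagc
Pygm: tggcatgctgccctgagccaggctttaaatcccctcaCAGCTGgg
Casq1: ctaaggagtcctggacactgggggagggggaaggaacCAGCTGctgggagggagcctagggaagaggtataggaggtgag

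Cartilage genes did not move as a group. Of 21 well above background, 3 were at least 4-fold higher in the maxilla and 4 in the mandible. Col9a2 and Col9a3, 2 chains of collagen IX, were 10.2- and 10.1-fold higher in the mandible, and Prg4, the lubricin gene of joint surfaces, 6.77-fold. Ucma, a secreted protein gene of resting chondrocytes, was 18.8-fold higher in the maxilla (-0.45 against -4.68), and Snorc 5.84-fold (1.90 with normexp). Col10a1, which marks hypertrophic chondrocytes, was at least 4.72-fold higher there but under 4-fold by quantile normalization (1.73). The defining genes Col2a1 (2.26 and 2.58) and Acan (-0.27 and -0.39) had like levels in both jaws. Among ligament and tendon genes, Tnmd, a tendon gene, was 5.47-fold and Kera 6.71-fold higher in the mandible, and the other 12 of 14 stayed under 4-fold, including Postn (6.93 in the maxilla, 6.21 in the mandible).

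Nerve and glial genes went in both directions. Of 22 genes 4 were at least 4-fold higher in the maxilla (Sox10, Stmn2, Erbb3 and Prph) and 3 in the mandible (Nefl, Nefm and Frzb), of which Nefm was at -0.74 with normexp and Erbb3 at 1.45 by the mean over probes. Sox10, a neural crest and glial transcription factor gene, stood at 1.35 in the maxilla and -2.45 in the mandible (14.0-fold, at least 1.93 by a further probe). Sox10 is also expressed in secretory gland cells, and the gland genes described above were higher in the maxilla too; their part in its difference was not tested. The myelin gene Mbp was 1.61 in the maxilla and 0.71 in the mandible by its brightest probe, under 4-fold. Its further probes differed by -0.63 and -0.60, so no direction is given. Nefl, a neurofilament gene, was -2.95 in the maxilla and -0.03 in the mandible (7.55-fold, -1.55 by a further probe). Of the other markers the study measured by PCR, Nes was named with the odontoblast genes. Ngfr was -0.59 in the maxilla and 0.77 in the mandible, with a further probe that differed by -0.28. Wnt1 was -3.92 and -4.74, and Msi1 -1.27 and -1.56 with a further probe that differed by -1.96. The control gene Gapdh was 4.88 in the maxilla and 5.86 in the mandible, a difference of -0.98.

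Blood and vessel genes differed little between the jaws. Of 14 erythroid, 10 megakaryocyte, 13 macrophage and 14 endothelial genes 0 passed 4-fold in either direction, with medians of -0.69, -0.46, -0.15 and -0.84. Small as they were, most of these differences were negative, for 13, 10, 8 and 13 genes in the same order. Alas2, the haem synthesis gene of red cells, was 4.26 in the maxilla and 4.79 in the mandible, both below the ilium (7.07) and femur (7.14). Ltf, the lactoferrin gene of neutrophils and glands, was 7.30 against 5.26 (4.11-fold, under 4-fold by quantile normalization, 1.83), Jchain, the joining chain gene of secreted antibodies, 1.63 against -0.53 (4.46-fold, 1.90 by median centring) and Cd247, a T cell receptor chain gene, -1.21 against -3.82 (6.13-fold, 1.19 by its weakest probe). These were the only genes past 4-fold among the neutrophil, B lymphocyte and T lymphocyte lists. Elane, Mpo and Ngp, genes of neutrophil granules, differed by -1.07, -1.06 and -0.92. Of 11 immediate early and stress genes 0 passed 4-fold, with a median of 0.63.

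Set against the ilium and femur, the 2 directions differed in which bone stood apart. Of the 1625 genes higher in the maxilla, 1329 (81.8%) were also at least 4-fold above both the ilium and the femur. For 61 (3.75%) both of those bones were at least 4-fold above the mandible, and 8 genes met both criteria. Of the 454 genes higher in the mandible, 197 (43.4%) were also at least 4-fold above the ilium and femur, among them Shh, Hand2 and Enam. For 137 (30.2%) the ilium and femur were both at least 4-fold above the maxilla, among them Jsrp1, Ckm and Casq1. Among the alternatives run at 4-fold, the background correction moved both counts most. With normexp 1013 and 262 genes passed 4-fold, and requiring signal well above background on both jaw arrays left 1055 towards the maxilla. The difference of Shh went from -4.18 to -3.38 with normexp.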

How the data were processed

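Total RNA of each bone was hybridised to 1 array of a 1-colour Agilent whole mouse genome slide, per the labels. Each deposited file gives the intensity of every spot from Agilent Feature Extraction 9.5.3.1, background-subtracted and detrended before deposit, per the file headers. The authors also deposited a series table of log2 values from GeneSpring 10.0.2, per the submitters' processing notes. Set against the scanner values they equal the log2 ratio to the ilium array minus a constant for each array, within 0.001 for 99.8% of probes, and how the constants were chosen is not given in the sources used here. Its column medians were -0.217 (maxilla), -0.133 (mandible) and 0.0232 (femur).

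Levels were log2 processed signals less the array's 75th percentile over 43379 spots that were not controls. The percentile was 809 in the maxilla, below 1142 in the mandible and ilium and 1208 in the femur, 72.8% to 75.5% of spots were well above background and 0 were saturated. Spots marked as outliers were left out, the other spots of a probe were averaged, and a gene with several probes took the brightest one by its mean over all arrays. A bound was the higher of the array's lowest signal well above background and the gene's own signal. Of 41174 probes, 24490 were named by accession, 6234 by current symbol and 2391 by previous symbol, using RefSeq names of GRCm38.p6, and 8059 retained the array's name, which gave 27595 genes. The design places probes on mm8, per the file headers.

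The genes named were the 15 with the largest difference in each direction that had a gene symbol, up to 6 per list by size of the difference with the members that define a tissue, the PCR markers of the study, and up to 4 per gene family. Genes named beyond these were chosen after their values were seen. Some genes that the rule names are not reported here, but stay in the counts and medians. The members and the 38 gene lists were chosen with earlier results of these data known. The rule was checked on simulated data. Alternatives were quantile normalization and normexp (limma 3.58.1 in R 4.3.3, offset 50), median centring, the series table, measured signal in place of bounds, other filters, the mean over probes, and thresholds of 2- and 8-fold. The number of arrays limits the precision.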

Additional observations from a re-analysis of the deposited data

How the results depend on the processing

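No gene called towards 1 jaw bone was called towards the other under any alternative run. Under most alternatives such a switch was hardly possible. The filters and the use of bounds cannot reverse a sign, and median centring and the series table shift nearly all differences by a small constant. None of the 130 named genes past 4-fold changed sign where an alternative gave it a value. Changes of sign that stayed under 4-fold were not counted for the other called genes. Of the 2 counts (1625 genes towards the maxilla, 454 towards the mandible), normexp gave 1013 and 262, signal well above background on both jaw arrays 1055 and 412, a 2-fold threshold 3281 and 1689, and an 8-fold threshold 958 and 98. The other alternatives stayed within 1.5 times, from 1378 to 2040 and from 411 to 600. The median difference of all genes moved from -0.05 to -0.15 with quantile normalization, -0.31 with median centring, -0.33 with the series table and 0.08 with normexp, and at 4-fold 69.7% to 79.7% of calls lay towards the maxilla. Of 130 named genes past 4-fold, 109 remained so with normexp, 123 by the mean over probes and 125 or more under other scalings. List medians changed sign under some settings for the upper jaw, Hox, hair follicle, developing muscle, Schwann cell, melanocyte, B lymphocyte and reference gene lists, and for the last ran from -0.26 to 0.07. The cause of these shifts was not tested. No array could be left out, since each bone had 1. No paired analysis was possible because each bone had 1 array and the labels give no replicate numbers. A gene dim in 1 bone has only a bound, so its fold may be larger than given.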

Other observations

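A small set of genes was low in the mandible alone. Among the 61 genes higher in the maxilla for which the ilium and femur were also at least 4-fold above the mandible, Aldh1a7, an aldehyde dehydrogenase gene, stood at 1.64 in the maxilla, -2.08 in the mandible and 0.38 and 0.46 in ilium and femur. Padi2, whose product converts arginine to citrulline in proteins, was 1.79, -1.44, 1.04 and 1.21 in the same order. Scnn1a, a subunit gene of the epithelial sodium channel, was 1.21, -1.85, 0.32 and 0.46, and the complement receptor gene Cr2 was -2.34, -5.64, -2.51 and -1.86, with a further probe that differed by 1.30. Adam8, a protease gene of myeloid cells, was 4.46, 2.15, 4.64 and 5.02. Neutrophil granule genes were divided. Pglyrp1 was among the 61, with 3.77, 1.55, 3.94 and 4.00, whereas Mpo was 4.03 in the maxilla and 5.10 in the mandible, against 7.48 in the ilium and 7.40 in the femur. These genes were chosen after their values were seen, and the pattern was not tested.

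Some epithelial genes outside the lists had large differences too. Krt23, a keratin gene, was 4.52 in the maxilla and -5.28 in the mandible (887-fold), and Serpinb11, a protease inhibitor gene, was 3.99 and -6.01 (1021-fold). The ilium and femur were not well above background for either. Sostdc1, a secreted inhibitor gene of BMP and Wnt signalling in tooth germs, was 1.77 in the mandible and -1.32 in the maxilla (8.54-fold).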
